A study of Mus musculus with 4 samples.

Results

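Cytochromes P450 of families 1 to 3 were measured in single nuclei of mouse liver from 4 libraries. The members were the genes whose symbol begins with Cyp1, Cyp2 or Cyp3 followed by a subfamily letter and a number, without the genes named as pseudogenes, if at least 50 unique molecular identifiers (UMIs, 1 per captured RNA molecule) were read over the 4 libraries, together with Nr1i2, Nr1i3, Ahr and Por. Of 60 such P450 genes among 32285 mouse genes, 42 reached that minimum and 18 did not, which gave 46 members in all. The nearest genes on either side were Cyp2g1 with 50 UMIs and Cyp2j11 with 51, and Cyp2d12 with 48, which stayed out. All 46 members were annotated as protein coding.

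The mice were young adult males of the Bl/6 strain, by the study's methods. They ate chow (CD) or a low-protein diet (LPD) for 1 week, were injected through the tail vein with Sleeping Beauty plasmids (SB-HTVI) that carried human c-MET and ΔN90-β-catenin or with empty vector, and stayed on the same diet for 2 more weeks. The injection reaches a minority of hepatocytes, so the oncogene livers were mosaics of cells with and without the plasmids. Each of the 4 groups, a control and an oncogene group on either diet, was 1 library, so no difference between groups has a replicate check, and no test, p-value or standard error is given. The intervals below are exact 95% Poisson or conditional binomial intervals and cover counting error only. Where 4 values stand in a row, they are those of CD control and CD oncogene followed by those of LPD control and LPD oncogene.

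Some features of the libraries bear on all results. The human transgenes went against the labels of the CD libraries. They gave 100 UMIs in the library labelled CD control and 0 in the one labelled CD oncogene, against 0 in LPD control and 6 in LPD oncogene. The numbers of nuclei that the study states for its CD groups also lie nearer to the library with the other label, after the same filter. Directions between the 2 CD libraries are therefore given by label only. The CD libraries were deeper than the LPD libraries, with a median of 5054 and 4244 UMIs per hepatocyte nucleus against 2308 and 2382, and held more mitochondrial RNA, with medians over nuclei of 2.42% and 0.983% against 0.09997% and 0.127%. Diet, depth and mitochondrial share cannot be told apart here. The 4 libraries were male by their RNA. Xist was at or below 0.820 UMIs per 1000000 UMIs (CPM) in hepatocyte nuclei of every library, and the Y-linked Uty was between 244.4 and 290.3 CPM.

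P450 enzymes are heme proteins of the endoplasmic reticulum that insert oxygen into drugs, toxins, steroids, fatty acids and bile acids. NADPH cytochrome P450 oxidoreductase (Por) passes them electrons. The nuclear receptors PXR (Nr1i2) and CAR (Nr1i3) and the aryl hydrocarbon receptor (Ahr) sense foreign compounds and turn on P450 genes. In the liver lobule, most drug-metabolising P450 enzymes are known for their high level in hepatocytes around the central vein, and several mouse P450 genes are known to differ between the sexes.

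The members lie in gene clusters of close copies, so part of their sequence is shared. Of 46 members, 26 shared at least 1 stretch of 90 bases of annotated transcript with another gene of the 3 families, and in 8 members more than 10% of such stretches were shared. The largest shares were 38.8% for Cyp2c40, 38.1% for Cyp2c69, 28.4% for Cyp2c67 and 22.4% for Cyp2c68. A read from such a stretch cannot be placed on 1 gene, so the levels of these Cyp2c genes and of Cyp2a4, Cyp2a5, Cyp2d10 and Cyp2d11 are uncertain. No shared stretch was found for Cyp2e1, Cyp2f2, Cyp2j5 or Cyp2u1. Reads from introns were not part of this count.

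Promoters of members were taken from RefSeq (build GRCm38.p6, from 250 bases before to 50 after the gene start), where 40 of 46 members matched. They are shown for Cyp2e1, Cyp2c29 and Cyp2f2, because these genes mark the central and the portal end of the lobule in the results that follow. Capitals mark the letters CTTTGAT (a core that TCF factors, the partners of β-catenin, can bind), AGGTCA (a core that nuclear receptors can bind) or GCGTG (the core that the aryl hydrocarbon receptor can bind), read on both strands.
Cyp2e1 promoter, chr7:140763569-140763868, plus strand: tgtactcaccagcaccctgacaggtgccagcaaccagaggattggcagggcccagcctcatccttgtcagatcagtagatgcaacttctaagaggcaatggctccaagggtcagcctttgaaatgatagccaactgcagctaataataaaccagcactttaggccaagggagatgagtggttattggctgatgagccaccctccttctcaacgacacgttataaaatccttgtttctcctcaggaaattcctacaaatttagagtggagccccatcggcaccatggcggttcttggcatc
Cyp2c29 promoter, chr19:39286835-39287134, plus strand: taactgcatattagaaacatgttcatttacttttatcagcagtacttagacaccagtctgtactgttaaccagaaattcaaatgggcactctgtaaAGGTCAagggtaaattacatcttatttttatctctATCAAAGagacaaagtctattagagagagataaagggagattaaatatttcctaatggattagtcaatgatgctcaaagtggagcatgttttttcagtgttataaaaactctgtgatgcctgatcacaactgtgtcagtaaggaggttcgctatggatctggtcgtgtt
Cyp2f2 promoter, chr7:27119705-27120004, plus strand: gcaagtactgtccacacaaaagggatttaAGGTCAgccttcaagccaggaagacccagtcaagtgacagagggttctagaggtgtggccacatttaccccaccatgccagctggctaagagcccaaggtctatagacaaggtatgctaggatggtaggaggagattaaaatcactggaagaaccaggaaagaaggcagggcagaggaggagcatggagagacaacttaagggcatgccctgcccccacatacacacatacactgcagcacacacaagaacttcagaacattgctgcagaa
Cyp2e1 held none of the 3 motifs in this window, Cyp2c29 held the nuclear receptor motif and, on the other strand, the TCF motif, and Cyp2f2 held the nuclear receptor motif. The TCF motif was in 2 of 37 matched P450 promoters (5.41%), those of Cyp2c29 and Cyp2c39, and in 3.72% of all 27025 promoters. The Cyp2c39 window (chr19:39347096-39347395) also held the nuclear receptor motif. It lay outside that gene as GENCODE places it (chr19:39510862-39568529), so its matches are uncertain. The nuclear receptor motif was in 12 of 37 (32.4%), against 16% of all promoters, and the aryl hydrocarbon receptor motif in 5 of 37 (13.5%), against 32.5%. No motif holds the letters of another. Matches of a few letters describe the sequence and not a bound site.

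The promoters of Cyp2c40 and Cyp2c69 are shown because these neighbours on chromosome 19 were both higher in LPD oncogene than in the other libraries and were the most alike of the P450 pairs compared by an ungapped overlap. Over 270 overlapping bases they differed at 3 places (98.9% identity), which are in capitals.
Cyp2c40 promoter, chr19:39812765-39813064, minus strand: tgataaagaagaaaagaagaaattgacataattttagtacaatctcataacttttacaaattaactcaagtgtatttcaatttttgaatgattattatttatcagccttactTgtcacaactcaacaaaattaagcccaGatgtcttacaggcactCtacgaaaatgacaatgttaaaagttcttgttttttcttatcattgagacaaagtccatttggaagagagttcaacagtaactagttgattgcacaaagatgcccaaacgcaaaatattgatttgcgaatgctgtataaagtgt
Cyp2c69 promoter, chr19:39886720-39887019, minus strand: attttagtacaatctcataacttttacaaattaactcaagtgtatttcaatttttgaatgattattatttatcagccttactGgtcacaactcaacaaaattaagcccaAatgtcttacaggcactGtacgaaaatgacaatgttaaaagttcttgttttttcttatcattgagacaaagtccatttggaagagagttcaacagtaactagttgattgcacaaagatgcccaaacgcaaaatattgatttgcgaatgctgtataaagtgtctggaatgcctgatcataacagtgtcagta
The next closest pairs were Cyp2a4 with Cyp2a5 (98.3%), Cyp3a25 with Cyp3a59 (96.3%) and Cyp2c67 with Cyp2c69 (92.8%).

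Levels were summed over hepatocyte nuclei, of which there were 7415, 8822, 7407 and 6434, and are given in CPM of the UMIs of all mouse genes. UMIs were not divided by gene length, so a CPM ranks captured molecules and not enzyme or transcript levels between genes. The 42 P450 genes together took 7749, 8096, 6340 and 6127 CPM. Most of it came from a few subfamilies. Cyp2c took 2300, 2466, 1713 and 2998 CPM, and Cyp3a took 1739, 2625, 1391 and 775 CPM. Cyp2e1, the enzyme that oxidises ethanol and paracetamol, took 1229, 847, 548 and 619 CPM.

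Cyp3a25, a family 3 enzyme, had the highest mean, with 1392, 1803, 1101 and 481 CPM. Cyp2j5, an epoxygenase of arachidonic acid, followed Cyp2e1 with 805, 849, 505 and 436 CPM. In both genes each CD library was above each LPD library. Por was ordered the other way, with 354, 396, 631 and 1186 CPM. For the 12 most abundant members the counting interval reached at most 5.63% to either side of the value. The spread between mice is not known. Of the 46 members, 36 had at least 100 UMIs over the zones compared and 20 CPM in 1 of them, and were followed across zones. The 10 others were Cyp1a1, Cyp2a4, Cyp2b9, Cyp2b10, Cyp2c39, Cyp2d11, Cyp2g1, Cyp2j8, Cyp2j11 and Cyp2s1. The CAR target Cyp2b10 gave 22, 66, 0 and 2 UMIs, where the 0 UMIs, with 3 counts taken as the limit of a count of 0, allow up to 0.151 CPM.

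**Figure D1:**
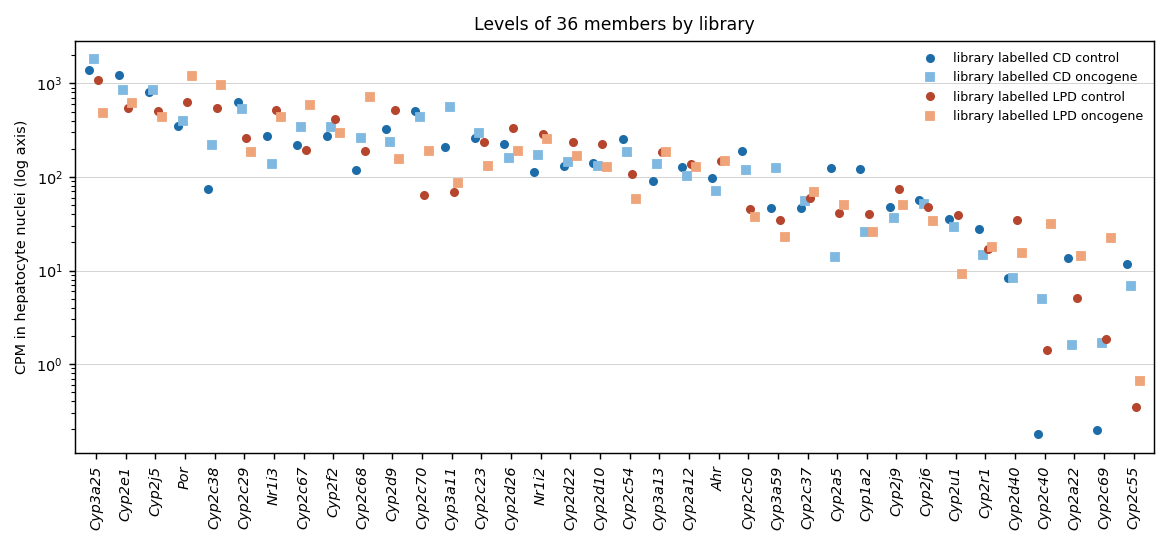
CPM in hepatocyte nuclei (log axis) of the 36 members with enough UMIs, 1 point per library. Circles are control and squares oncogene labels, blue CD and red LPD. Cyp3a25 lies between 481 and 1803 CPM and Cyp2c40 between 0.177 and 31.2 CPM.

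Hepatocyte RNA was also read in nuclei of other classes, here called free RNA. Albumin (Alb), a hepatocyte product, gave 7.43 UMIs per Kupffer-like nucleus and 23.2 per hepatocyte nucleus. Cyp2e1 was 0.343 UMIs per nucleus in B-like, 0.452 in Kupffer-like and 4.05 in hepatocyte nuclei. UMIs per Kupffer-like or B-like nucleus were 9.2% to 16.6% of those per hepatocyte nucleus for Cyp2e1 over the 4 libraries, and 27.5% to 30.1% for Cyp3a11. The shares of other genes reached higher, with 16.7% to 54.1% for Cyp1a2 and 23.2% to 48.0% for Alb. Levels of members in other cell classes within such shares were read as background.

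Against that background, 2 members of low level stood out in other cell classes. Cyp2s1, a P450 known from epithelia, had 74 UMIs in 337 mesothelial-like nuclei (140 CPM, interval 110 to 176) and 15 UMIs in 30078 hepatocyte nuclei (0.111 CPM). It was 97.9, 97.8, 375 and 136 CPM in mesothelial-like nuclei, so all 4 libraries showed it. It also gave 31 UMIs in 381 cholangiocyte-like nuclei, 27 of them from LPD control. Cyp1a1, the classical target of the aryl hydrocarbon receptor, had 8 UMIs in 333 vascular endothelial-like nuclei (16.5 CPM, interval 7.12 to 32.5) and 0.384 CPM in hepatocytes. The 8 UMIs came from 3 of the libraries, with 0 CPM in LPD control. Neither gene gave a UMI in Kupffer-like or B-like nuclei. Ahr itself was at 128 CPM in vascular endothelial-like and 113 CPM in sinusoidal endothelial-like nuclei, and at 102 CPM in hepatocytes.

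Zonation was asked within each library. Hepatocyte nuclei were ordered by 9 central markers (such as Glul and Lgr5) and 8 portal markers (such as Hal and Sds), none of them a P450 gene, and cut into portal, middle and central zones of equal numbers of nuclei. A zone is thus a class of RNA content and not a measured position. A member counted as central or portal when it was at least 2-fold higher or lower in the central than in the portal zone of all 4 libraries, with 5 CPM added to both values. Of 32 P450 genes with enough UMIs, 10 were central (31.2%, against 1.15% of all 7536 genes) and 1 was portal (3.12%, against 0.809%). The median over these P450 genes of the mean log2 ratio was 0.62, and 0.03 over all genes. The 6 check genes left out of the score lay on their known sides, with log2 ratios of at least 0.95 for central Rgn, Aldh1a1 and Lhpp and of -0.45 or lower for portal Pigr, Ctsc and Gls2.

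The 10 central genes were Cyp2e1, Cyp1a2, Cyp2a5 and 7 of 12 Cyp2c genes followed (Cyp2c29, Cyp2c37, Cyp2c38, Cyp2c50, Cyp2c54, Cyp2c67 and Cyp2c68). Among them, Cyp2a5 and Cyp2c37 reached 20 CPM in the central zone alone. Cyp2e1 was 154, 121, 94.0 and 117 CPM in the portal zone and 2447, 1797, 1214 and 1256 CPM in the central zone. Its log2 ratios were 3.94, 3.83, 3.62 and 3.37. Every central value was above every portal value, whatever the diet.

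Cyp2c38 had the steepest gradient. It was 2.43, 13.6, 26.9 and 115 CPM in the portal zone and 209, 564, 1407 and 2047 CPM in the central zone, with log2 ratios between 4.10 and 5.47. The libraries also differed within a zone, and both LPD libraries were above both CD libraries in each of these 2 zones. Its portal level was 0.0158, 0.0826, 0.0717 and 0.309 UMIs per nucleus, against 0.0194, 0.129, 0.130 and 0.142 in Kupffer-like and B-like nuclei. Only in LPD oncogene was it above free RNA. Its portal differences and the size of its gradient therefore rest largely on values at background. Cyp2c37 had similar log2 ratios in all libraries, between 3.36 and 3.69. Cyp2c29, which CAR induces, ranged from 2.21 in LPD oncogene to 4.32 in CD control.

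Cyp1a2, which metabolises caffeine and is a target of the aryl hydrocarbon receptor, was 33.0, 12.6, 6.68 and 7.81 CPM in the portal zone and 246, 43.4, 91.6 and 50.7 CPM in the central zone. Cyp2a5, a coumarin hydroxylase, was 12.2, 5.13, 2.89 and 6.94 CPM and 325, 27.2, 108 and 122 CPM. The gradient of both was smallest in CD oncogene, with log2 ratios of 1.46 and 1.67. Their portal values there were at free RNA, with 0.0765 and 0.0313 UMIs per nucleus against 0.0823 and 0.0316 in Kupffer-like and B-like nuclei. On LPD their portal values were below free RNA. The central zones also differed, with Glul at 1109 CPM in CD control and 187 CPM in CD oncogene, so these gradients do not compare like zones.

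Cyp2f2, which acts on naphthalene and styrene, was the portal member. It was 525, 557, 670 and 530 CPM in the portal zone and 53.4, 99.3, 113 and 93.0 CPM in the central zone, with log2 ratios between -3.18 and -2.43. Cyp2a12 and Cyp2u1 leaned the same way, with log2 ratios of -0.43 to -1.29 and of -0.41 to -0.88, and did not reach 2-fold in every library.

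**Figure D2:**
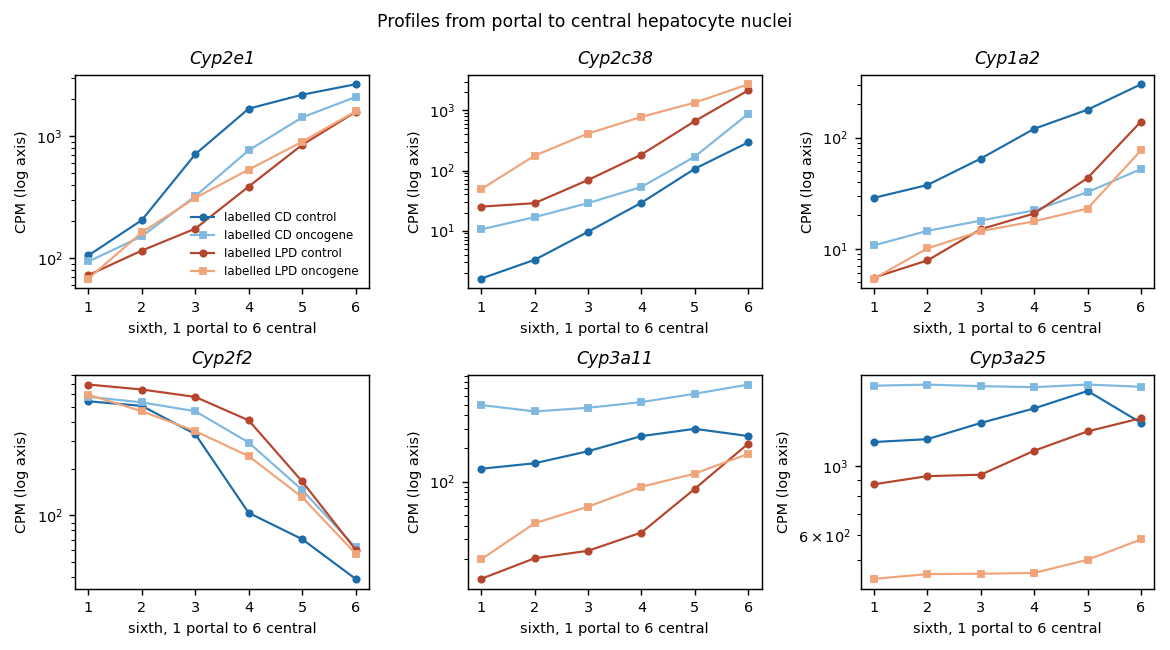
CPM (log axis) of 6 members over sixths of hepatocyte nuclei ordered from portal (1) to central (6), 1 line per library. Cyp2e1 goes from 105 to 2666 CPM in CD control, Cyp2f2 falls from 542 to 39.1 CPM there, and Cyp3a25 in CD oncogene stays between 1785 and 1820 CPM.

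The Cyp2d, Cyp2j and Cyp3a genes gave no call in either direction. Cyp2j5 had log2 ratios between -0.38 and 0.21, and Cyp3a25 between -0.01 and 0.59. Cyp3a11, the main drug-metabolising family 3 enzyme and a target of PXR, was uneven among libraries. It was 139, 465, 16.7 and 31.2 CPM in the portal zone and 278, 700, 154 and 149 CPM in the central zone. Its log2 ratio was 0.98 and 0.59 on CD and 2.87 and 2.09 on LPD. Its portal level on LPD was close to its free RNA, with 0.0446 and 0.0839 UMIs per nucleus against 0.0521 and 0.0730 in Kupffer-like and B-like nuclei. The LPD ratios therefore rest on a portal value near background.

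Among the regulators, Ahr was central in all 4 libraries, with 32.5, 33.2, 45.0 and 61.4 CPM in the portal and 185, 121, 276 and 255 CPM in the central zone. Nr1i3 had log2 ratios of 1.95, 2.62, 1.66 and 0.96 and missed 2-fold in LPD oncogene only. Por had ratios between 0.95 and 1.83 and missed it in the same library. Nr1i2 was level, between -0.12 and 0.08.

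**Figure D3:**
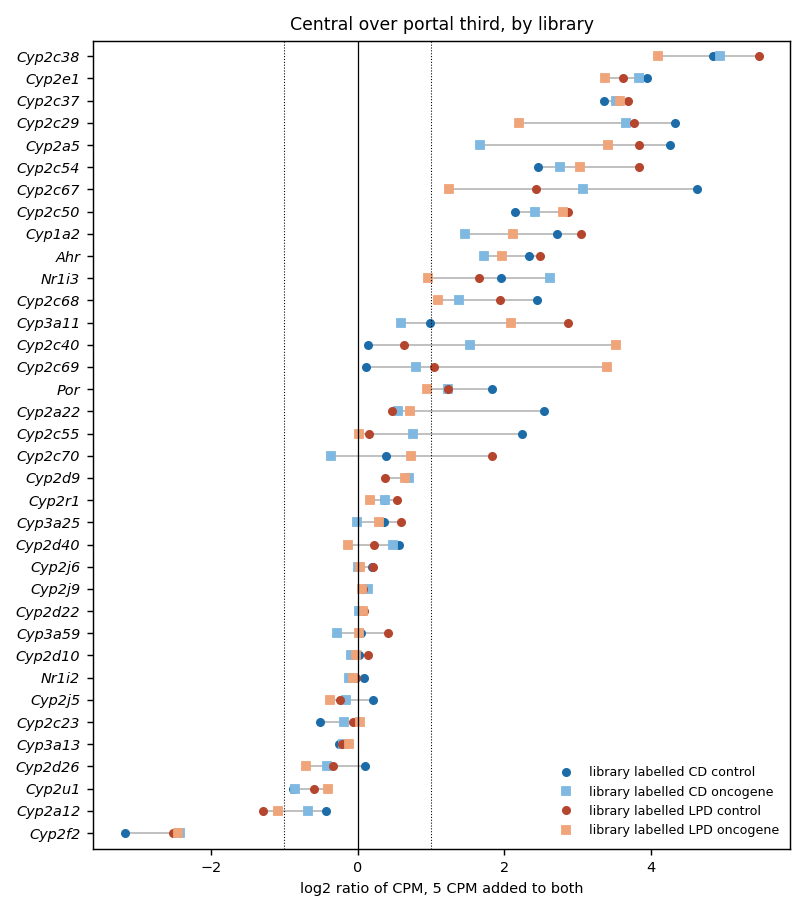
log2 ratio of CPM in the central over the portal zone, with 5 CPM added to both, for 36 members (rows) and 4 libraries (points); grey lines span the libraries and dotted lines mark 2-fold. Cyp2c38 lies highest, between 4.10 and 5.47, and Cyp2f2 lowest, between -3.18 and -2.43.

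Portal levels of Cyp2e1 and Cyp2c29 were also close to their free RNA. Cyp2e1 was 1.00, 0.740, 0.251 and 0.314 UMIs per nucleus in the portal zone and 0.685, 0.762, 0.244 and 0.209 in Kupffer-like and B-like nuclei. Cyp2c29 was 0.426, 0.517, 0.0980 and 0.170 in the portal zone and 0.479, 0.641, 0.112 and 0.0686 in those nuclei. With the free RNA subtracted the same 10 genes were central and Cyp2f2 was portal, and the smallest log2 ratio of Cyp2e1 was 4.76. With the zone score from the 6 check genes alone, Cyp2c67 and Cyp2c68 fell below 2-fold in 1 or more libraries.

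For diet, each LPD library was set against each CD library (4 pairs), and the injection labels play no part in the direction. The 4 pairs share libraries. Of 30 P450 genes with enough UMIs, 1 was at least 2-fold higher on LPD in all pairs (3.33%, against 2.41% of 7220 genes) and 4 were lower (13.3%, against 1.51%). The median of the mean log2 ratio was 0.03 for these P450 genes and 0.19 for all genes, and the latter was 0.02 with TMM scaling, which left the P450 calls as they were.

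The gene that was higher on LPD was Cyp2c38, with 74.1 and 219 CPM on CD and 545 and 954 CPM on LPD. Its log2 ratios were between 1.29 and 3.60. The genes that were lower were Cyp3a11, Cyp2c29, Cyp2c50 and Cyp2c70. Cyp3a11 had 211 and 559 CPM on CD and 69.0 and 87.3 CPM on LPD. Cyp2c70, the mouse enzyme that makes muricholic bile acids, had 501 and 433 CPM on CD and 64.4 and 190 CPM on LPD. Cyp2c29 had 626 and 539 CPM on CD and 258 and 186 CPM on LPD. Cyp2c50 had 189 and 120 CPM on CD and 45.9 and 37.6 CPM on LPD. That both LPD libraries lay on 1 side of both CD libraries in each of these 5 genes follows from the call rule.

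These calls were not all firm. Cyp2c29 fell below 2-fold when hepatocyte nuclei were chosen by their own markers (smallest log2 ratio -0.68), Cyp3a11 under the stricter filter of nuclei (-0.98), and Cyp2c70 with free RNA subtracted (-0.85), while Cyp2c38 and Cyp2c50 stayed past it under every alternative run. With 1 library left out, 4 to 7 P450 genes were called lower and 1 to 4 higher. Without LPD control, Cyp2c68, Cyp2c40 and Cyp2c69 joined the higher genes and Cyp2u1, Cyp3a25 and Cyp2c54 the lower genes. Without LPD oncogene, Cyp2d40 was also higher, and without CD control Cyp2a5 was higher and Cyp3a59 lower. Without CD oncogene, Cyp2a5, Cyp1a2 and Cyp2c54 joined the lower genes.

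**Figure D4:**
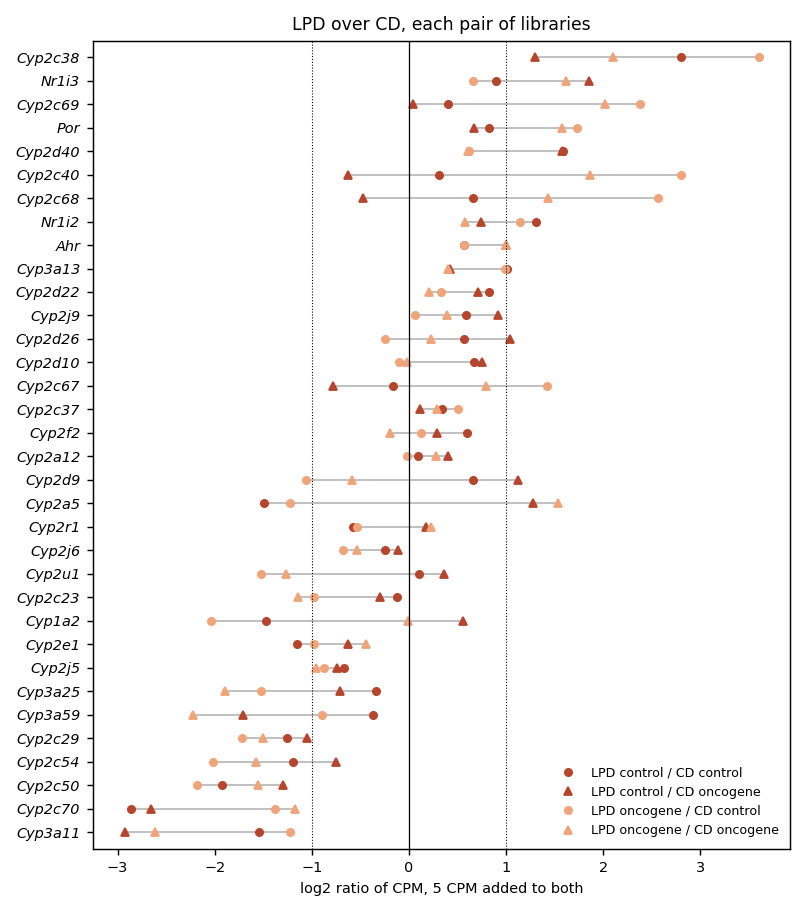
log2 ratio of CPM in hepatocyte nuclei, LPD over CD, with 5 CPM added to both, for 34 members (rows) and each of the 4 pairs of libraries (points); dotted lines mark 2-fold. Cyp2c38 is the only member with all 4 points above 2-fold, and Cyp3a11, Cyp2c70, Cyp2c50 and Cyp2c29 have all 4 below it.

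Several other members kept 1 direction without reaching 2-fold in each pair. Cyp2e1 had log2 ratios between -1.16 and -0.45, Cyp2c54 between -2.02 and -0.75, and Cyp2j5 between -0.95 and -0.67. The receptors had positive values, Nr1i3 between 0.65 and 1.85, Nr1i2 between 0.57 and 1.31 and Ahr between 0.56 and 1.00, and Por was between 0.66 and 1.73. Of the 7 genes listed as linked to CAR and PXR, 5 had enough UMIs, of which 3 were called lower (Cyp2c29, Cyp2c50 and Cyp3a11) and 0 higher. Their median was -1.39, against 1.51% lower and a median of 0.19 over all genes. The list did not move 1 way, since Cyp2c37 was higher in all 4 pairs, with log2 ratios between 0.12 and 0.50. The calls of Cyp2c29 and Cyp3a11 are those lost under alternatives above. This list was chosen with earlier results of these data known, so its share is given as a value and not as support.

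The diet values were also taken within each zone. From portal to central, 4 of 26, 3 of 28 and 3 of 32 P450 genes were lower, against 1.47%, 1.47% and 1.36% of all genes. Cyp2c50 was lower in all zones. Cyp2c70 was lower in the portal and middle zones, with smallest log2 ratios of -1.54 and -1.31, and had -0.62 in the central zone. Cyp2c29 was lower in the central zone, just past 2-fold, and had -0.049 in the portal and -0.99 in the middle zone. Cyp2c55 was also lower in the central zone, where it reached 20 CPM in CD control alone, so its inclusion favoured a call. Cyp2c38 was the 1 P450 gene that was higher in the middle zone (1.53) and in the central zone (1.31), against 2.59% and 1.94% of all genes. Cyp3a11 was lower in the portal and middle zones (-1.99 and -1.52) and had 278 and 700 CPM on CD and 154 and 149 CPM on LPD in the central zone. Cyp2c54 was lower in the portal zone (-1.69). On LPD its portal level was 0.0308 and 0.0270 UMIs per nucleus, against 0.0301 and 0.0139 in Kupffer-like and B-like nuclei. Portal Cyp2c50 on LPD was 0.0247 and 0.0186, against 0.0180 and 0.0174. The portal calls of these genes, like that of Cyp3a11, thus rest on LPD values that were low and mostly near free RNA. Nr1i3 was higher in the portal zone (1.14), where it had 115, 39.3, 259 and 302 CPM. With the same zone cuts in all libraries, the 3 P450 genes lower in the central zone became 1.

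The oncogene and control labels were compared on LPD first, where the few transgene UMIs lay in the library labelled oncogene. Of 29 P450 genes, 5 were at least 2-fold higher in LPD oncogene (17.2%, against 1.55% of 6823 genes) and 3 were lower (10.3%, against 1.03%). The higher genes were 5 of 11 Cyp2c genes, namely Cyp2c40, Cyp2c69, Cyp2c68, Cyp2c67 and Cyp2c70, with log2 ratios of 2.50, 1.98, 1.90, 1.58 and 1.49. The lower genes were Cyp2d9, Cyp2u1 and Cyp3a25, with -1.71, -1.62 and -1.19. All 8 calls held under every alternative run, but none of these dealt with reads shared between genes. Cyp2c40 and Cyp2c69 of the higher genes and Cyp2u1 of the lower genes reached 20 CPM on their higher side alone, so their inclusion favoured a call. Without them 3 higher and 2 lower calls remain. Over all genes, 37 of 106 higher and 15 of 70 lower calls were of that kind. With the zones of each library, 4 of 22, 5 of 25 and 5 of 30 P450 genes were higher from portal to central, against 1.76%, 1.65% and 1.64% of all genes, and 3, 3 and 5 were lower, against 0.88%, 1.11% and 1.19%. Cyp2c67, Cyp2c68 and Cyp2c70 were higher and Cyp2d9, Cyp2u1 and Cyp3a25 lower in all 3 zones, while Cyp2c40 and Cyp2c69 were called in the central zone. With the same cuts in all libraries, 3 in place of 5 P450 genes were higher and 5 in place of 3 lower in the middle zone.

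Genes known to differ between the sexes were among them. The list of female-biased genes, chosen with earlier results of these data known, held 9 P450 genes, of which 2 had enough UMIs here, Cyp2c40 and Cyp2c69. Both reached the minimum of 20 CPM in LPD oncogene alone, so they could enter the comparison only by being high there, and their calls are given as values. Cyp2c40 was 0.177, 4.91, 1.41 and 31.2 CPM, and the value in LPD oncogene had an interval of 28.7 to 33.9. Cyp2c69 was 0.199, 1.68, 1.86 and 22.0 CPM. LPD oncogene stood apart from the 3 other libraries in both. Since 32.2% of the Cyp2c69 stretches are also in Cyp2c40, their reads may be partly the same.

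Cyp2b9 and Cyp2a4, steroid hydroxylases of the same list that were too low for the call, were also highest in LPD oncogene. Cyp2b9 was 0.509, 0.135, 0.603 and 6.18 CPM, from 23, 7, 12 and 113 UMIs. Cyp2a4 was 0.111, 0.0385, 0.0502 and 2.84 CPM, from 5, 2, 1 and 52 UMIs. The other 5 genes of the list, Cyp2b13, Cyp3a16, Cyp3a41a, Cyp3a41b and Cyp3a44, had between 0 and 14 UMIs in hepatocytes. In LPD oncogene these genes differed in their zone. Cyp2c40 was 2.43 CPM in the portal and 80.3 CPM in the central zone, while Cyp2b9 was 11.6 and 1.09 CPM and Cyp2a4 6.07 and 0.779 CPM.

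The male-biased list, also chosen with earlier results of these data known, held 2 genes. Both were lower, and Cyp2u1 reached 20 CPM in LPD control alone of the LPD libraries, so they are given as values. Cyp2d9, a testosterone hydroxylase, was 330, 237, 523 and 156 CPM. Cyp2u1 was 35.9, 29.1, 38.8 and 9.19 CPM. LPD oncogene was lowest in both, with Xist at 0.219 CPM and Uty at 244.4 CPM in that library. Among the listed partners and regulators, the female-biased factor Cux2 was 0.443, 0.289, 177 and 137 CPM and was the 1 of 13 called for diet, so it was high in both LPD libraries. Bcl6, a repressor that is higher in males, was 204, 421, 583 and 210 CPM and was called lower in LPD oncogene together with Nr0b2. Nr0b2 was 190, 33.2, 81.0 and 19.7 CPM. By label, Nr0b2 was also called lower in CD oncogene, and Bcl6 was called higher there. With 1 library per group, the injection label and the single liver cannot be told apart here.

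**Figure D5:**
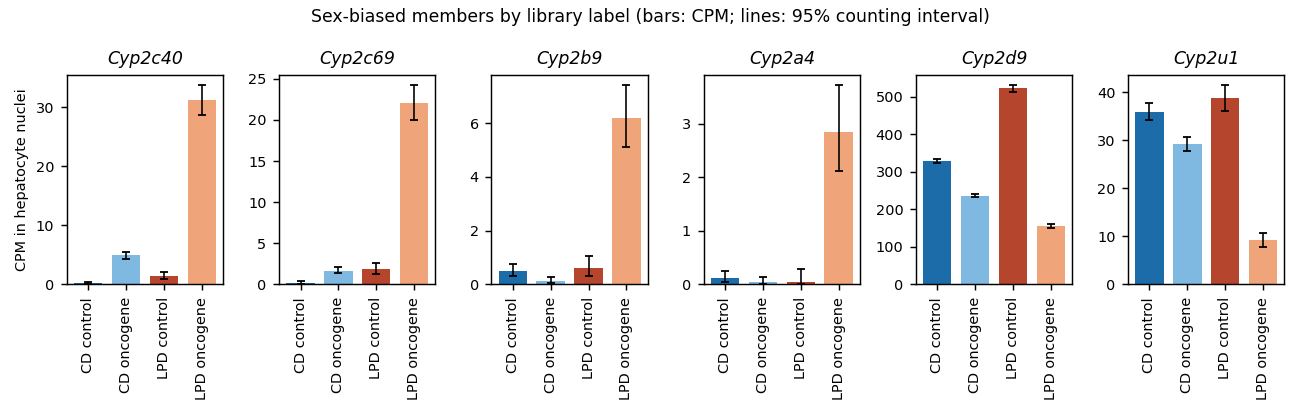
CPM in hepatocyte nuclei of 4 female-biased (Cyp2c40, Cyp2c69, Cyp2b9, Cyp2a4) and 2 male-biased members (Cyp2d9, Cyp2u1) in the 4 libraries; bars are CPM from 0, lines the 95% counting interval. LPD oncogene has the highest bar in the first 4 panels (31.2, 22.0, 6.18 and 2.84 CPM) and the lowest in the last 2 (156 and 9.19 CPM).

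Por and heme synthesis were also measured, because each P450 needs electrons and heme. Por was 631 CPM in LPD control and 1186 CPM in LPD oncogene, a log2 ratio of 0.91. Alas1, the rate-limiting enzyme of heme synthesis, was 216, 408, 412 and 1718 CPM. It was the 1 of 6 heme synthesis genes that was called higher in LPD oncogene, against 1.55% of all genes. Of 5 electron transfer genes, Por among them, 0 were called for zonation, for diet or between the CD labels over all hepatocyte nuclei. Between the LPD labels 4 of them were high enough to be compared, without Cyb5r3, and 0 were called. At most 2.41% of all genes were called in 1 direction in these comparisons, so 0 calls in so few genes are not a result about them. Within the portal zone Por was higher in LPD oncogene, with a log2 ratio of 1.06. Blvrb, which reduces biliverdin, was central in all libraries, as 1 of 2 heme breakdown genes with enough UMIs, against 1.15% of all genes. Alad of heme synthesis and Blvrb were lower in CD oncogene, as were 2.06% of all genes, with Alad at 16.1 against 38.9 CPM.

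Between the libraries labelled CD oncogene and CD control, 4 of 27 P450 genes were at least 2-fold higher in the first (14.8%, against 2.41% of 6461 genes) and 2 were lower (7.41%, against 2.06%). Cyp2c38, Cyp3a11, Cyp3a59 and Cyp2c68 were higher, with log2 ratios of 1.38 for Cyp3a11, 1.33 for Cyp3a59 and 1.13 for Cyp2c68, and 74.1 and 219 CPM for Cyp2c38. The median of all genes was -0.10, and 0.03 with TMM scaling, under which the same P450 genes were called. Cyp2c38 and Cyp2c68 came to 0.80 and 0.94 when the CPM of single nuclei were averaged. Cyp2a5 and Cyp1a2 were lower, with -2.77 and -2.03. Cyp2a5, which reached 20 CPM in CD control alone, was 125 CPM there and 14.0 CPM in CD oncogene, and Cyp1a2 was 121 and 25.8 CPM. The direction of all these values turns if the 2 labels are exchanged.

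Within zones, Cyp1a2 had log2 ratios of -1.12, -1.97 and -2.37 from portal to central. Cyp2a5 was lower in the middle (-2.02) and central zones (-3.36). Of the 2 genes listed as linked to the aryl hydrocarbon receptor that had enough UMIs, Cyp1a2 was lower and Tiparp was 20.1 and 15.3 CPM. Ahr was 98.0 and 71.1 CPM. Nr1i3 was 275 and 139 CPM, a log2 ratio of -0.96, and -1.44 in the portal and -1.35 in the middle zone. These values depended on where the zones were cut. With the cuts of each library, 1 of 24, 4 of 27 and 4 of 29 P450 genes were lower from portal to central, against 1.81%, 2.12% and 2.57% of all genes. With the same cut values in all libraries the counts were 0, 0 and 3.

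Nuclei with transgene UMIs were compared with the others inside the library labelled CD control, where 85 hepatocyte nuclei had at least 1. Of 29 P450 genes 11 were at least 2-fold higher in these nuclei (37.9%, against 1.97% of 6597 genes) and 1 was lower (3.45%, against 2.03%). Cyp2c67 had 856 CPM in positive and 208 CPM in negative nuclei, Cyp2a5 375 and 120 CPM, Cyp1a2 320 and 117 CPM, and Cyp2e1 2754 and 1202 CPM. Ahr and Por were also past 2-fold, with log2 ratios of 1.25 and 1.29. Cyp2f2 was 46.0 CPM in positive and 278 CPM in negative nuclei. Of the 11 higher genes, Cyp2a22 and Cyp2c55 reached the minimum of 20 CPM in positive nuclei alone (44.8 and 42.3 CPM, from 36 and 34 UMIs), so their inclusion favoured a higher value. The 9 others were genes called central in the zonation results.

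The zone score differed as well. Of the 85 positive nuclei 81 were scored into the central zone. The score counts RNA of β-catenin targets such as Glul, Lgr5 and Axin2, so it does not measure where these nuclei lay in the lobule, and a comparison inside a zone would select on the same RNA. Positive nuclei were deeper, with a median of 7307 UMIs against 5020.5, and with negative nuclei of like depth 11 P450 genes were again past 2-fold upwards and 1 downwards. Nuclei of 1 library are not replicates, so these values describe that liver.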

How the data were processed

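Nuclei from frozen liver were sequenced with 10x 3' chemistry. Per the file headers and the labels, the authors made the deposited counts (whole UMIs per gene and barcode, not normalized) with Cell Ranger 9.0.1 on mm10 with the human transgenes added. The members and gene lists were chosen with earlier results of these data known.

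From the deposited counts, nuclei with 200 to 7000 genes and at most 21% mitochondrial UMIs were kept, as in the study's methods (10397, 12552, 9825 and 10103 nuclei). Of 42709 different barcodes, 168 were in more than 1 library. 5000 variable genes without members or transgenes, 23 components after a Harmony-type correction for library, 20 neighbours and Louvain clustering (resolution 0.4, python-igraph 0.11.9) gave 20 clusters, named from marker lists. The thresholds for naming were set after the counts were seen. 3 clusters raised for a second class were removed as doublets, with no doublet caller run, and 1 cluster led by globin genes stayed unnamed. UMIs were summed per library and zone and divided by those of all mouse genes. Genes entered a comparison with at least 100 UMIs over its sets and 20 CPM in 1 of them. Calls needed 2-fold with 5 CPM added, and the steps were tested on simulated counts with known folds. Sums and intervals used numpy 2.4.6 and scipy 1.17.1.

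Named members were the 12 highest by mean CPM, the 5 highest and 5 lowest per contrast, and Nr1i2, Nr1i3, Ahr and Por, which gave 30. Cyp2s1, Cyp1a1, Cyp2b9, Cyp2a4, Cyp2b10 and the members in the notes on shared sequence and on thresholds, and the genes of the lists, were named after their values were seen. Gene positions came from GENCODE vM21. Alternatives covered scaling (TMM from edgeR 4.0.16), pseudocount, filters, choice of hepatocytes, zone cuts and leaving out each library.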

Additional observations from a re-analysis of the deposited data

Results flagged for a closer look

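In 10 of 46 members the oncogene label went with opposite directions on the 2 diets, beyond the counting interval of each library pair. The share over all genes was not taken, and at these depths small ratios pass the interval. The count is therefore not read as a trait of the members. The difference between the diets was not tested, because each group is 1 library, and the set depends on the CD labels, which the transgenes contradict. Exchanging the CD labels only turns the sign of the CD ratio, so these 10 members then have the same direction on both diets by definition. In the same way 18 others, among them Cyp2c67, Cyp2c68, Cyp2d9 and Cyp1a2, then have opposite directions. The log2 ratios of oncogene over control label, on CD and then on LPD, were -2.77 and 0.26 for Cyp2a5, 1.33 and -0.52 for Cyp3a59, 0.37 and -1.19 for Cyp3a25, and -0.21 and 1.49 for Cyp2c70. For Nr1i2 they were 0.57 and -0.17, for Cyp2c23 0.17 and -0.85, for Cyp2f2 0.31 and -0.48, and for Cyp2e1 -0.54 and 0.18. Cyp2d22 had 0.12 and -0.50, and Cyp2j5 had 0.076 and -0.21, so these 2 moved little on CD.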

How the results depend on the processing

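The 10 central P450 genes and the portal Cyp2f2 were called in 16 of 18 alternatives run for zonation, with Cyp2c68 lost on thinned nuclei and Cyp2c67 and Cyp2c68 with check markers. For diet, the 4 lower genes became 2 with the unnamed cluster and 2 with free RNA subtracted, both added after seeing the data. With 1 library left out the lower genes numbered 4 to 7 and the higher genes 1 to 4. On CD, the 4 higher genes became 2 with the mean of single nuclei and 2 with nuclei holding other markers removed. In the central zone alone, the 11 higher and 1 lower genes of transgene-positive nuclei became 0 and 0, which says nothing of stability, since the zone score selects on β-catenin target RNA. Within zones, the same cut values in all libraries changed the portal counts from 0 to 1 higher with diet and from 1 to 0 lower on CD, the middle counts on CD from 4 to 8 higher and 4 to 0 lower and on LPD from 5 to 3 higher and 3 to 5 lower, and the central counts from 3 to 1 lower with diet and 3 to 6 higher on CD. No called member changed direction under any alternative run. Summing a subfamily hid opposite members, since the diet ratio of the Cyp2c sum changed sign between pairs while Cyp2c38 was at least 1.29 in log2. The cause of these shifts was not tested. The limits are 1 library per group, CD labels that the transgenes contradict, free RNA in every class, and reads shared by close copies. No paired analysis was possible because each group has 1 library and no replicate numbers.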

Other observations

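Cyp2c55, which CAR and PXR are known to induce, was too low for the diet call over all hepatocyte nuclei. It had 11.6 and 6.87 CPM on CD and 0.351 and 0.656 CPM on LPD. With no filter on low genes it was called lower. In the central zone it had 28.0 and 10.5 CPM on CD and 0.712 and 0.779 CPM on LPD, and was called lower there. It reached 20 CPM in CD control alone, so its inclusion favoured a call.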
